A study of Homo sapiens with 372 samples.

Results

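The genes described are 10 members of the BCL2 family and the mitochondrial apoptosis machinery, taken by symbol from a table of 9664 genes in single A2780 cells. Of the 10, 7 were listed: MCL1, BCL2L1, BAK1, BID, BAD, BNIP3 and BNIP3L. BCL2L11, PMAIP1 and BBC3 were not analysed here. The authors kept a gene when more than 30% of cells had it in any condition, which all 7 and 9655 of the 9664 genes passed on recounting. BAK1 passed it through the control cells alone, so a lower share of BAK1-positive cells elsewhere was built into its being listed.

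A2780 is an established human ovarian cancer line, and its cells were captured on the Fluidigm C1 and profiled by Smart-seq2, which reads full-length transcripts. The control cells were untreated (46 cells). Paclitaxel, which stabilizes microtubules and arrests cells in mitosis, was given at 5 nM for 16 h (56 cells) or 48 h (53 cells). Celecoxib, a cyclooxygenase inhibitor, was given at 75 µM for 2 h (63 cells) or 16 h (61 cells), and both drugs were given together at those doses for 16 h (59 cells, called the combination). Each condition was 1 sample, with no replicate culture named, so cells are not replicates, no test between conditions was made, and every ± below is the SD over cells. Each library name in the labels ends in a running number, whose meaning they do not give, and libraries were grouped by it into blocks of 96. The condition, its culture and mostly its block cannot be told apart. The labels give no time for the control, and all differences from control share the same control cells.

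The BCL2 family sets whether the outer mitochondrial membrane is permeabilized. The guards MCL1 and BCL-xL (from BCL2L1) restrain the pore former BAK1, and the BH3-only proteins either activate the pore formers, as cleaved BID does, or occupy the guards, as dephosphorylated BAD does. Permeabilization releases cytochrome c and SMAC, from which the apoptosome and the effector caspases follow. BNIP3 and BNIP3L (NIX) carry an atypical BH3 stretch and are best known as mitophagy receptors of the outer membrane, and BNIP3 is a classic target of hypoxia-inducible factor. Cleavage, phosphorylation and the turnover of MCL1 act on the proteins, which these RNA data do not measure.

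BID, BAD and BNIP3 were the most abundant of the 7. By the largest difference of each gene over the treatments, they also differed most from control on the deposited scale. This did not hold in each treatment, since after 16 h of paclitaxel MCL1 (−0.74) was further from control than BNIP3 (−0.66). The 250 bases before the start sites of BID, BAD and BNIP3 are shown (RefSeq, GRCh38.p14, 5 of the 7 genes matched a promoter entry). These windows lie on the minus strand at chr22:17774470-17774719 for BID, chr11:64284666-64284915 for BAD and chr10:131981924-131982173 for BNIP3, and each is written 5′ to 3′ on the gene's strand. Capitals mark the GC box (GGGCGG), the CCAAT box (CCAAT), the core of the hypoxia response element (ACGTG or GCGTG) and the E-box (CACGTG), on either strand.
BID: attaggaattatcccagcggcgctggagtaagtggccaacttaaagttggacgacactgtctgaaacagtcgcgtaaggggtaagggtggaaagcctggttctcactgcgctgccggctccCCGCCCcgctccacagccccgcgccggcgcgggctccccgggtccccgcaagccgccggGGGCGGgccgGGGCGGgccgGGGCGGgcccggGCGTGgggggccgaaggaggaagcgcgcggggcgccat
BAD: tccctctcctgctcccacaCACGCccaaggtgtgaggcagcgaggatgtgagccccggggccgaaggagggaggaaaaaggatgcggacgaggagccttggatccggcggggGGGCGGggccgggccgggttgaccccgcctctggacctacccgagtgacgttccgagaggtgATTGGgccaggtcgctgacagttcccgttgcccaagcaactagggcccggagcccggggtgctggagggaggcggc
BNIP3: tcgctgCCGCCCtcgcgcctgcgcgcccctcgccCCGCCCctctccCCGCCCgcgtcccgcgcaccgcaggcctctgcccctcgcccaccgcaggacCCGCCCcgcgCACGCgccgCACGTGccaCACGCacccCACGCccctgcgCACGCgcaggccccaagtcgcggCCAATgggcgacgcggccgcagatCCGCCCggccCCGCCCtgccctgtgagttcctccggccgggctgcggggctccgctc
All 3 windows were rich in G and C, at 72% for BID, 69.6% for BAD and 81.6% for BNIP3. The BNIP3 window held 6 GC boxes, 1 CCAAT box, 4 matches of GCGTG and 1 CACGTG, whose letters read as ACGTG on both strands and so count 2 times. BID held 4 GC boxes and 1 GCGTG, and BAD held 1 GC box, 1 CCAAT box and 1 GCGTG. Among 34788 promoter windows of the same length, 42.6% held GGGCGG, 32% CCAAT, 18.5% ACGTG, 32.2% GCGTG and 6.31% CACGTG. The CHOP-ATF4 element TGATGNAA, held by 3.16% of all windows, was in none of the 3. A match describes letters in a window and is not a measured site.

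Values are E-values, log2(N/10 + 1), where N is the TPM of a gene normalized by the authors to the most abundant of 3 spike-in RNAs in the same cell. On this scale the E-value follows the RNA content of the cell as well as its composition. The median cell differed from the median control cell in its summed N by −0.99 (log2) after 16 h of paclitaxel, −0.64 after 48 h, −0.76 after 2 h of celecoxib, −1.52 after 16 h and 0.49 in the combination. Differences are therefore also given after each cell was brought to 1 common sum of N, called the same total below, which takes the spike-in scaling out. A gene was called higher or lower when the mean E-value differed from control by over 0.58, a 1.5-fold limit on the log2(N/10 + 1) scale, which understates changes of weakly expressed genes. Read depth is unknown, and the median number of genes detected per cell was between 6125 and 6630 in every condition. Of 9 markers of the line, KRT18 and VIM were listed, detected in 23.9 to 36.5% and 62.5 to 86.8% of the cells of a condition, at mean E-values of 0.45 to 1.11 and 1.90 to 3.70, and the other 7 were not analysed here. Of 9 markers of other cell types, LYZ and COL1A2 were listed, detected in 37.0 to 60.7% and 10.7 to 32.8% of cells, with mean E-values of at most 0.24 and 0.96. LYZ was thus detected in a larger share of cells than KRT18, at a lower mean.

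The 7 genes formed 3 tiers, and TPM, being per transcript length, allows the comparison between genes. In control cells BID, BAD and BNIP3 had mean E-values of 4.65 ± 1.15, 3.98 ± 1.06 and 3.54 ± 1.02 (n = 46 cells), above 90.0%, 85.4% and 81.4% of all genes. BNIP3L followed at 2.15 ± 1.46. The guards MCL1 at 1.26 ± 1.03 and BCL2L1 at 0.61 ± 0.84 and the pore former BAK1 at 0.46 ± 0.79 were the lowest, with 45.3%, 23.5% and 17.0% of genes below them. BID stayed first and the order BNIP3L, MCL1, BCL2L1, BAK1 closed the list in all 6 conditions, while BAD and BNIP3 exchanged places at both paclitaxel times.

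**Figure D1:**
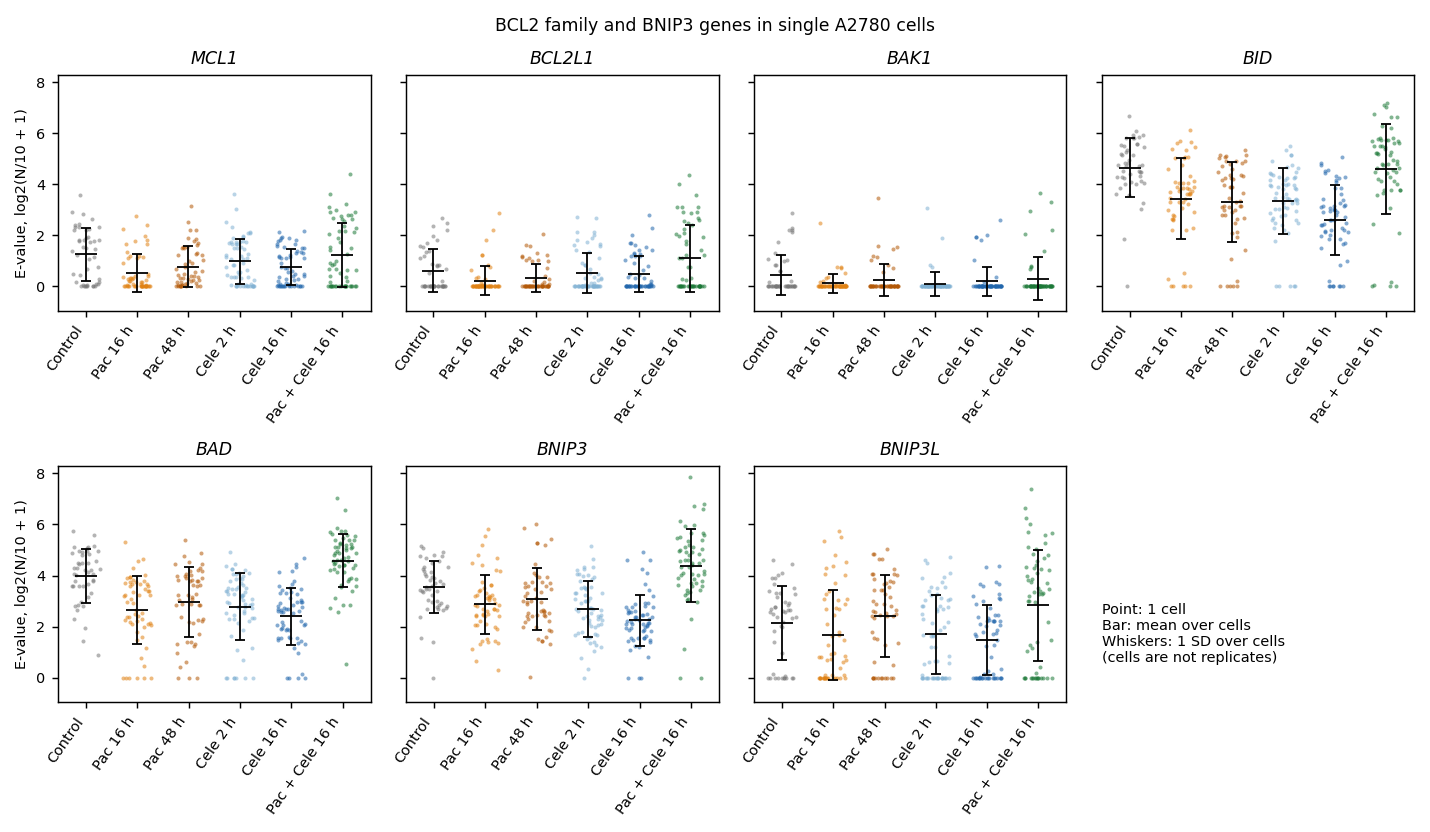
E-value of each listed gene in single cells (y axis, log2(N/10 + 1)) by condition (x axis). Points are cells, bars the mean and whiskers 1 SD over cells, and BID, BAD and BNIP3 reach means of 2.25 to 4.65 while BAK1 stays at or below 0.46.

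Among the guards, MCL1 was lowest after 16 h of paclitaxel. Its median E-value was 1.43 in control cells, 0.17 and 0.45 after 16 and 48 h of paclitaxel, 0.84 and 0.55 after 2 and 16 h of celecoxib and 0.84 in the combination. The lowest cell was at 0 in every condition and the highest ran from 2.19 to 4.40, so that the cells of all conditions overlapped. Mean E-values were 1.26 in control, 0.52 ± 0.74 and 0.78 ± 0.79 with paclitaxel, 0.98 ± 0.88 and 0.76 ± 0.71 with celecoxib and 1.23 ± 1.25 in the combination. The difference from control passed the limit only at 16 h of paclitaxel (−0.74). The other 4 were −0.48, −0.28, −0.50 and −0.03 in that order, all within it. Scaled to the same total, the differences were −0.48, −0.18, −0.01, 0.08 and −0.27, none past the limit, and 16 h of paclitaxel kept the lowest mean.

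Detection of MCL1 was lowest after 16 h of paclitaxel and in the combination. It was detected in 82.6% of control cells (exact Clopper-Pearson 95% interval 68.6 to 92.2), 64.3% of cells after 16 h of paclitaxel (50.4 to 76.6) and 66.1% of combination cells (52.6 to 77.9), against 77.8 to 84.9% in the other treatments. These intervals overlap and cover counting error only. In the cells with MCL1 detected, the mean E-value was 1.52 ± 0.93 in control, 0.80 ± 0.79 after 16 h of paclitaxel and 1.86 ± 1.08 in the combination. The share and the level in positive cells were both below control after 16 h of paclitaxel, while in the combination the share was below and the level above, each by less than the SD over cells or within overlapping intervals. With an E-value above 1 counted as detection, the shares were 58.7% in control, 25.0 and 34.0% with paclitaxel, 47.6 and 41.0% with celecoxib and 44.1% in the combination, so that 16 h of paclitaxel kept the lowest place and the combination did not keep the next.

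BCL2L1, which encodes the guard BCL-xL, was sparse. It was detected in 20 of 46 control cells, 13 of 56 and 19 of 53 paclitaxel cells at 16 and 48 h, 28 of 63 and 28 of 61 celecoxib cells at 2 and 16 h and 31 of 59 combination cells. The median was 0 in every condition except the combination, where it was 0.28, and the highest cell there reached 4.37. The mean was 0.61 in control and highest in the combination at 1.10 ± 1.31, a difference of 0.49, within the limit. That call depended on the measure, since the combination was past the limit with a ratio of linear means (0.87), with a pseudocount of 1 (0.83) and in the cells of block 3 alone (0.68), each of which gave 4 members higher in place of 3. The share of all genes higher was not computed for these measures. The single drugs differed from control by −0.10 to −0.39. At the same total the difference of the combination was 0.23 and that of 16 h of celecoxib 0.22, and neither passed the limit.

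Cells with neither guard detected were most frequent after 16 h of paclitaxel, 17 of 56 (30.4%, 95% interval 18.8 to 44.1). The count was 6 of 46 in control (13.0%, 4.94 to 26.3), 6 of 53 after 48 h of paclitaxel, 7 of 63 and 8 of 61 after 2 and 16 h of celecoxib and 10 of 59 in the combination. Of the 17 cells, 14 had both BID and BAD detected, and of the 6 control cells all 6 did. The median number of genes detected was 6125 after 16 h of paclitaxel and 6630 in control, and its part in these shares was not tested.

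BAK1, the pore former, was near the floor. It was detected in 16 of 46 control cells (34.8%, 21.4 to 50.2) and in 6.35% (celecoxib 2 h, 4 of 63) to 19.6% (paclitaxel 16 h) of treated cells. The median was 0 in all conditions and the highest cell lay between 2.5 and 3.66. Means were 0.46 in control and 0.10 to 0.30 in the treatments, and none of the differences, −0.16 to −0.35, passed the limit. Since the gene is in the table only through its control share, these differences are given as a description.

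**Figure D2:**
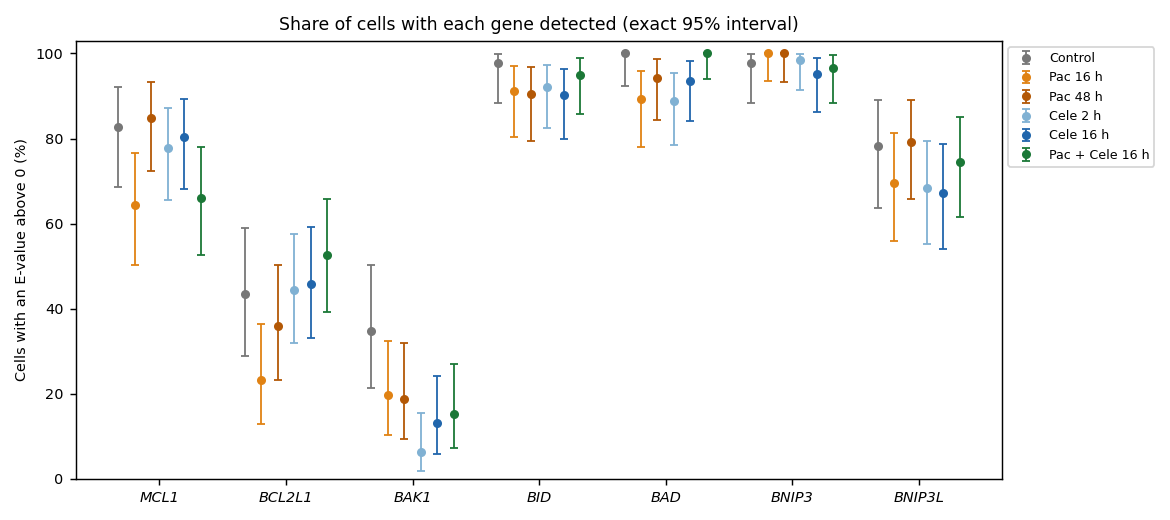
Share of cells with an E-value above 0 (y axis, %) for each gene (x axis) and condition, with exact 95% intervals that cover counting error only. BID, BAD and BNIP3 are at 88.9% or above everywhere, MCL1 drops to 64.3% after 16 h of paclitaxel and 66.1% in the combination, and BAK1 is highest in control at 34.8%.

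BID, the BH3-only protein that caspase 8 cleaves into an activator of the pore formers, was below control with each single drug. Its median E-value was 4.74 in control, 3.68 and 3.48 after 16 and 48 h of paclitaxel, 3.48 and 2.74 after 2 and 16 h of celecoxib and 4.91 in the combination. The lowest cell was at 0 in all conditions, and the highest was 6.66 in control, 5.05 after 16 h of celecoxib and 7.19 in the combination. Of the cells after 16 h of celecoxib, 58 of 61 (95.1%, 86.3 to 99.0) were below the control median, and of the combination cells 26 of 59 (44.1%, 31.2 to 57.6). Mean differences from control were −1.22 and −1.35 with paclitaxel, −1.31 and −2.06 with celecoxib and −0.05 in the combination, against control at 4.65.

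BID was the only one of the 7 whose mean was over 0.5 below control in all 5 treatments at the same total per cell. The differences were −0.51, −0.83, −0.77, −0.93 and −0.65, from a control mean of 4.13 ± 1.01, and all but that of 16 h of paclitaxel passed the limit. In those 4 treatments only 1.92 to 4.41% of all genes had a lower difference than BID. All genes include weakly expressed ones, whose changes this scale understates, and BID was not ranked among genes of like level. In the combination, whose cells were level with control on the spike-in scale, 41 of 59 cells were below the control median once totals were equal. On the deposited scale 12.9% of all genes passed the limit between the 34 combination cells of block 1 and the 25 of block 3, and BID was among them at 4.91 against 4.18. Against control, the combination differed in BID by 0.26 in block 1 and −0.48 in block 3, and at the same total by −0.42 and −0.96. The paclitaxel cells at 48 h were split in the same way over blocks 2 and 4, with BID at 2.86 and 3.62. These differed from control by −1.80 and −1.03, and at the same total by −1.18 and −0.58. Block 4 also held all 46 control cells, and no other treatment had cells in it. With totals equal, the call at 48 h was kept in block 2 and lay just within the limit in block 4.

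BAD, the BH3-only protein that survival kinases hold inactive by phosphorylation, differed from BID in the combination. Its median was 4.18 in control, 2.94 and 3.25 with paclitaxel, 3.07 and 2.60 with celecoxib and 4.70 in the combination, in the order of times above. All 46 control cells and all 59 combination cells had BAD detected, with lowest cells of 0.89 and 0.54, while 3 to 7 cells of each single-drug condition were at 0. The highest cell ran from 4.68 after 16 h of celecoxib to 7.04 in the combination. Mean differences were −1.32, −1.02, −1.19 and −1.57 with the single drugs, all past the limit, and 0.61 in the combination, just past it. By block the combination differed by 0.45 (block 1) and 0.83 (block 3), so that the call was not kept in block 1. With totals made equal they were −0.62, −0.48, −0.70, −0.43 and −0.04, so that only 16 h of paclitaxel and 2 h of celecoxib remained past the limit and the combination was at −0.24 in block 1 and 0.25 in block 3. Adding celecoxib to paclitaxel at 16 h gave BAD a difference of 1.93 as deposited and 0.59 with equal totals, the latter at the limit. In block 1, which held all paclitaxel cells of that time, the difference was 1.77 as deposited and 0.38 with equal totals, within the limit.

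BAD overlaps exons of GPR137 on the opposite strand (chr11:64269830-64284704, minus strand, GENCODE 44), and reads without strand information cannot be assigned between such a pair. GPR137 was listed at a mean E-value of 1.12 in control, 0.36 and 0.90 with paclitaxel, 0.53 and 0.23 with celecoxib and 0.86 in the combination, and its part in the BAD values was not tested. Opposite-strand exon overlaps also exist for MCL1 (chr1:150560895-150579738) with ADAMTSL4, BCL2L1 (chr20:31664452-31723989) with ABALON, BAK1 (chr6:33572547-33580293) with GGNBP1 and BNIP3L (chr8:26383054-26505636) with PNMA2. ADAMTSL4 was listed with means of 0.12 to 0.51 and PNMA2 with at most 0.10. BID (chr22:17734138-17774770) and BNIP3 (chr10:131967684-131981967) have no such overlap, but BNIP3 has 44 named pseudogenes, none of them listed, and its values are uncertain to the extent that reads were shared with them.

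**Figure D3:**
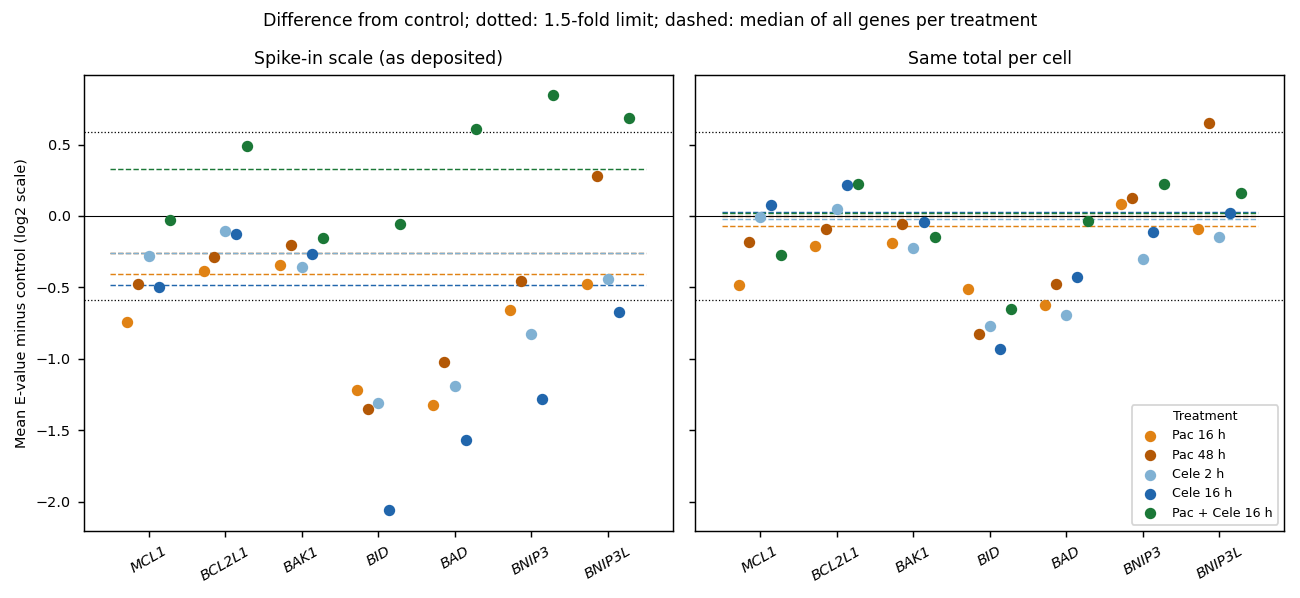
Mean E-value minus control (y axis, log2 scale) for each gene (x axis) and treatment, on the deposited spike-in scale (left) and at the same total per cell (right). Dotted lines mark the 1.5-fold limit and dashed lines the median of all genes, and BID stays below −0.5 in all 5 treatments on both scales except the combination on the left (−0.05).

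BNIP3 and BNIP3L, the mitophagy receptors, were the members highest above control in the combination on the deposited scale. At the same total BCL2L1, BNIP3 and BNIP3L were at 0.23, 0.22 and 0.16 there, all within the limit. BNIP3 had medians of 3.58 in control, 2.83 and 2.96 with paclitaxel, 2.69 and 2.16 with celecoxib and 4.48 in the combination. The lowest cell of a condition was between 0 and 0.31, and the highest between 4.92 after 16 h of celecoxib and 7.88 in the combination. Its mean differences were −0.66, −0.45, −0.83, −1.28 and 0.85, of which the 48 h paclitaxel value did not pass the limit. At the same total they were 0.08, 0.13, −0.30, −0.11 and 0.22, none past the limit, so that its calls on the deposited scale were not kept when totals were equal.

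BNIP3L was the most unevenly detected of the moderately expressed members. It was at 0 in 10 of 46 control cells and in 11 to 20 cells of each treatment, and its highest cells ran from 4.37 after 16 h of celecoxib to 7.38 in the combination. Medians were 2.57 in control, 0.90 and 2.63 after 16 and 48 h of paclitaxel, 1.68 and 1.71 with celecoxib and 3.33 in the combination. The mean differed from control by −0.48 at 16 h of paclitaxel and by 0.28 at 48 h, and at the same total the 48 h difference was 0.65, past the limit and above that of 97.5% of all genes. By block it was 0.92 (block 2, 22 cells) and 0.46 (block 4, 31 cells). The latter lay within the limit, in the block that held all 46 control cells. From 16 to 48 h of paclitaxel, BNIP3L was higher by 0.76 as deposited and by 0.74 with totals equal, while BNIP3 was higher by 0.20 and 0.05.

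Members past the limit were counted beside the share of all genes past it. On the deposited scale 4 of the 7 (MCL1, BID, BAD and BNIP3) were lower after 16 h of paclitaxel, where 37.3% of all genes were. The count was 2 (BID and BAD) at 48 h beside 26.6% of genes, 3 (BID, BAD and BNIP3) after 2 h of celecoxib beside 25.7%, and 4 (BID, BAD, BNIP3 and BNIP3L) after 16 h beside 43.9%. In the combination 3 were higher (BAD, BNIP3 and BNIP3L) beside 30.4% of genes and none was lower beside 1.76%. No member was higher with a single drug, where 0.0932, 0.922, 1.12 and 0.383% of genes were. At the same total 1, 1, 2, 1 and 1 members were lower, in the order of treatments above, beside 10, 5.78, 8.12, 7.95 and 5.8% of genes, and 1 was higher (BNIP3L at 48 h of paclitaxel) beside 3.28%. The shares of all genes higher on that scale in the other 4 treatments were 1.4, 3.31, 7.37 and 5.96%. The median difference of the 7 was −0.66, −0.45, −0.44, −0.67 and 0.49 on the deposited scale, against −0.41, −0.26, −0.26, −0.48 and 0.33 for all genes. With totals equal it was −0.21, −0.09, −0.23, −0.04 and −0.04, against −0.07, 0.0029, −0.02, 0.03 and 0.02.

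Set against the single drugs at 16 h, 6 of the 7 were higher in the combination than with paclitaxel (all but BAK1) beside 62.5% of genes, and 5 were higher than with celecoxib beside 66%. None was lower, beside 0.0311 and 0.0414% of genes. The differences were 0.71 for MCL1, 0.87 for BCL2L1, 1.17 for BID, 1.93 for BAD, 1.5 for BNIP3 and 1.16 for BNIP3L over paclitaxel. Over celecoxib they were 0.47, 0.62, 2.01, 2.18, 2.13 and 1.36. Once totals were equal, 1 (BAD over paclitaxel) and 0 passed the limit, beside 9.57 and 5.03% of genes, and none was lower beside 1.64 and 4.39%. Within the block that each single drug shared with the combination, 6 were higher than with paclitaxel (block 1) and 5 than with celecoxib (block 3) as deposited. With totals equal these became 0 and 1, the latter BAD at 0.68 over celecoxib. No share of all genes was computed within a block, so these counts are not read as a result about the members. When the 6 conditions were ordered by mean, no neighbouring pair differed by over the smaller SD over cells for any of the 7 genes on either scale (35 pairs each). Conditions further apart in that order did so on the deposited scale. BID after 16 h of celecoxib differed from control by −1.79 SD of the control cells. BNIP3 in the combination differed from 16 h of celecoxib by 2.13 SD of the celecoxib cells. With totals equal these 2 values were −0.92 and 0.30.

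Within a cell, the transcripts of BID, BAD and BAK1 together exceeded those of MCL1 and BCL2L1 in 46 of 46 control cells, 54 of 56 and 51 of 53 paclitaxel cells, 61 of 63 and 58 of 61 celecoxib cells and 58 of 59 combination cells. The median ratio of summed N, which does not depend on the spike-in, was 22.9 in control, 131 and 25.2 after 16 and 48 h of paclitaxel, 10.9 and 12.8 after 2 and 16 h of celecoxib and 19.8 in the combination, with cells lacking both guards ranked highest. After 16 h of paclitaxel 17 of the 56 cells lacked both, so the 131 rests in part on non-detection. The ratio of the mean sums over cells was 17.1 in control, 23.9 and 17.4 with paclitaxel, 10.0 and 9.17 with celecoxib and 13.9 in the combination. It weighs cells by their spike-in scaled N. With 10 normalized TPM added to both sums, the mean log2 ratio was 3.86 ± 1.28 in control and 3.57 ± 1.41 after 16 h of paclitaxel. The ratio with 10 added also depends on the spike-in scale, since a fixed 10 weighs more in cells of low total. The medians of that ratio were 3.75 and 3.76. Celecoxib was lowest on each measure. With 10 added its means were 2.87 ± 1.18 after 2 h and 2.45 ± 1.24 after 16 h, and the combination was at 3.88 ± 1.73.

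**Figure D4:**
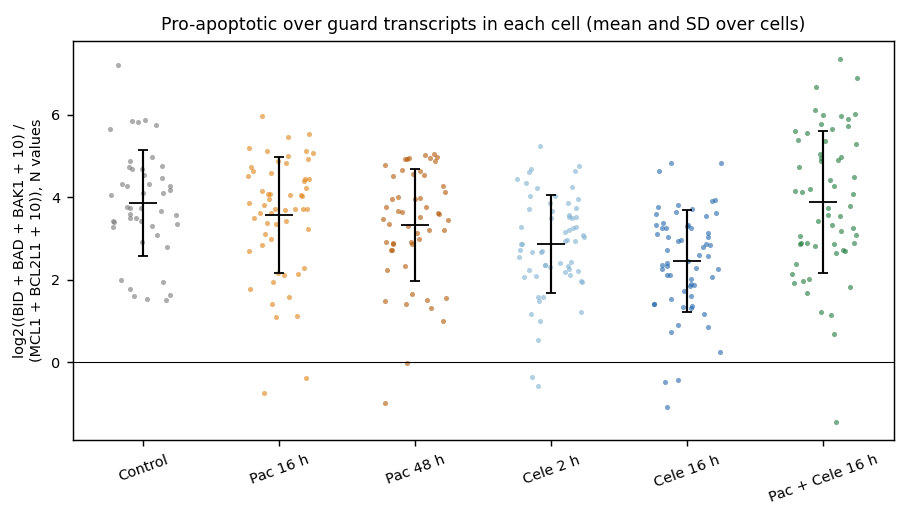
log2 ratio of the summed N of BID, BAD and BAK1 to that of MCL1 and BCL2L1, each plus 10, in single cells (y axis) by condition (x axis), with the mean and SD over cells. Means lie between 2.45 (celecoxib 16 h) and 3.88 (combination), and few cells fall below 0. The added 10 weighs more in cells of low total, so this ratio depends on the spike-in scale.

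Correlation between the members from cell to cell was weak. Over the 21 pairs the Pearson r of E-values at the same total, averaged over the 6 conditions, had a median of 0.01 and a highest value of 0.22, for BNIP3 with BNIP3L. These are descriptions over cells that share a condition. On the deposited scale the r with the cell's log2 total, averaged over the conditions, was 0.53 for BID, 0.51 for BNIP3 and 0.40 for BAD. It was 0.29 to 0.13 for the other 4, and 0.27 for the median gene. For MCL1 this r was 0.51 within 16 h of paclitaxel and 0.12 to 0.42 in the other conditions. BNIP3 was the only member with genes of mean r over 0.3 at the same total, and its 3 closest were glycolytic enzymes: ALDOA (0.41, 0.28 to 0.53 over the conditions), PGAM1 (0.41, 0.27 to 0.63) and LDHA (0.40, 0.27 to 0.59). Between conditions, the differences at the same total were −0.61, −0.26, −0.79, −0.54 and −0.46 for ALDOA, −0.41, −0.11, −0.35, −0.56 and −0.24 for PGAM1 and −0.40, −0.67, −0.80, −1.21 and −0.45 for LDHA, beside 0.08, 0.13, −0.30, −0.11 and 0.22 for BNIP3. As deposited, all 3 enzymes had the sign of BNIP3 in each treatment, as did the median of all genes.

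By the states that the authors assigned to cells from these same profiles, BID after 48 h of paclitaxel was at 2.68 ± 1.58 in the suppressed cells (25 cells) and 3.85 ± 1.04 in the control-like ones (28 cells), with totals equal. After 16 h the pair was 3.38 ± 1.77 (31 cells) and 3.88 ± 1.19 (23 cells), and after 2 h of celecoxib 3.39 ± 1.35 (33 cells) and 3.24 ± 1.13 (26 cells).

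The other genes of the pathway are given by lists, whose counts stand beside the shares of all genes past the limit. As deposited these were 37.3, 26.6, 25.7 and 43.9% lower with the single drugs and 30.4% higher in the combination. With totals equal 10, 5.78, 8.12, 7.95 and 5.8% were lower and 1.4, 3.28, 3.31, 7.37 and 5.96% higher. Of 20 further BCL2 family members and partners, 9 were listed, among them BAX, the other pore former, and BECN1. On the deposited scale 5, 3, 2 and 6 of the 9 were lower with the single drugs and 1 was higher in the combination. With totals equal only BCL2L12, an atypical family member, was past the limit, at −0.62 after 16 h of paclitaxel and −0.61 after 2 h of celecoxib.

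Of 18 genes of permeabilization, mitochondrial fusion and fission and the apoptosome, 16 were listed, and 11, 11, 11 and 12 were lower with the single drugs and 7 higher in the combination. The medians of the list were −0.83, −0.81, −0.74, −1.32 and 0.49, beside −0.41, −0.26, −0.26, −0.48 and 0.33 for all genes. At equal totals 2, 1, 2, 1 and 1 were lower and none was higher. DIABLO, which encodes SMAC, an antagonist of the inhibitors of apoptosis, differed by −0.67 and −0.59 after 16 h of paclitaxel and 2 h of celecoxib. HTRA2, a mitochondrial protease with the same antagonist activity, differed by −0.61, −0.63 and −0.65 after 16 and 48 h of paclitaxel and in the combination. VDAC3, an outer membrane channel, differed by −0.76 after 2 h of celecoxib, and ENDOG, a mitochondrial nuclease, by −0.65 after 16 h.

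Among 17 caspases, their regulators and substrates, 15 were listed, and 3, 4, 2 and 6 were lower with the single drugs on the deposited scale. In the combination 3 were higher and 1 was lower. With totals equal 1 was lower in each of the 5 treatments, and 1 was higher in each of the last 2. The lower gene, BIRC5 (survivin), an inhibitor of apoptosis family protein that also serves in the chromosomal passenger complex of mitosis, was past the limit on both scales in all of them, with differences of −0.62, −1.08, −1.06, −1.56 and −1.23 at the same total. XIAP, the direct caspase inhibitor, was past the limit only in the combination, by 1.18 as deposited and 0.62 with totals equal.

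Of 17 partners of the mitophagy receptors, 16 were listed. On the deposited scale 6, 3, 3 and 7 were lower with the single drugs and 11 were higher in the combination, where the median of the list was 0.87 beside 0.33 for all genes. Scaled to the same total the combination had 4 higher and none lower, with a median of 0.36. These were GABARAPL2, an ATG8 family protein that such receptors bind (1.06), the autophagy receptors CALCOCO2 (0.93) and TAX1BP1 (0.60), and FKBP8, another outer membrane mitophagy receptor (0.75). GABARAPL2 was also higher after 48 h of paclitaxel (0.75) and 2 h of celecoxib (0.96), and FKBP8 after 48 h of paclitaxel (0.80) and after 2 and 16 h of celecoxib (0.87 and 0.85), as was CALCOCO2 after 16 h of celecoxib (0.59), on that scale alone. SQSTM1 (p62), a receptor that links ubiquitinated cargo to autophagosomes, went the other way, at −0.92, −0.77 and −0.82 after 16 h of paclitaxel and 2 and 16 h of celecoxib. PHB2, an inner membrane mitophagy receptor, differed by −0.72 after 16 h of celecoxib.

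Of 20 hypoxia targets and their factor, 13 were listed, and none was higher with a single drug on either scale. On the deposited one 4, 3, 2 and 5 were lower with the single drugs and 4 were higher in the combination, and with totals equal 0, 1, 1, 2 and 1 were lower and 1 was higher. LDHA, lactate dehydrogenase, differed by −0.67, −0.80 and −1.21 at the same total after 48 h of paclitaxel and 2 and 16 h of celecoxib. HIF1A itself differed by −0.61 after 16 h of celecoxib, and P4HA1, a prolyl hydroxylase of collagen, by 0.87 in the combination.

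The list of transcription factors that act upstream of BH3-only genes, and of other targets of such factors, held the largest positive differences of the lists. Of 14 genes 9 were listed, and 0, 1, 3, 4 and 4 were higher on the deposited scale and 0, 3, 4, 6 and 3 with totals equal. The counts of lower genes were 3, 1, 2, 1 and 0 and, with totals equal, 1, 0, 1, 0 and 0. DDIT3 (CHOP), a stress factor, was higher by 1.96, 2.22 and 1.11 after 2 and 16 h of celecoxib and in the combination, and TRIB3, its target, by 1.43, 2.99 and 1.42, all at the same total. CEBPB was higher by 0.94, 1.32 and 0.64 in the same 3 conditions. CDKN1A (p21), a p53 target, was higher by 1.96 after 48 h of paclitaxel and 1.5 after 16 h of celecoxib and differed by −0.11 in the combination. MYC differed by −0.71 and −0.63 after 16 h of paclitaxel and 2 h of celecoxib. PMAIP1, BBC3 and BCL2L11, the BH3-only genes that such transcription factors are known to regulate, were not analysed here.

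Genes that control the stability of MCL1 protein and the inhibition of BAD protein were mostly within the limit once totals were equal. Of 13 ubiquitin ligases, deubiquitinases and other regulators of MCL1, 11 were listed and 2 were past it, CUL1 (−0.85) and BTRC (−0.62), both subunits of SCF ubiquitin ligases and both after 16 h of paclitaxel. Of 15 BAD kinases and phospho-BAD binding proteins of the YWHA family, 13 were listed, and 3, 2, 2, 2 and 1 were lower. YWHAQ was lower in all 5 treatments, with differences of −0.75, −0.69, −0.87, −0.81 and −0.76, although on the deposited scale its combination difference was −0.10. YWHAH differed by −0.95, −0.79 and −0.73 in the first 3 treatments, YWHAB by −0.68 after 16 h of celecoxib, and the kinase AKT1 by −0.77 after 16 h of paclitaxel.

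**Figure D5:**
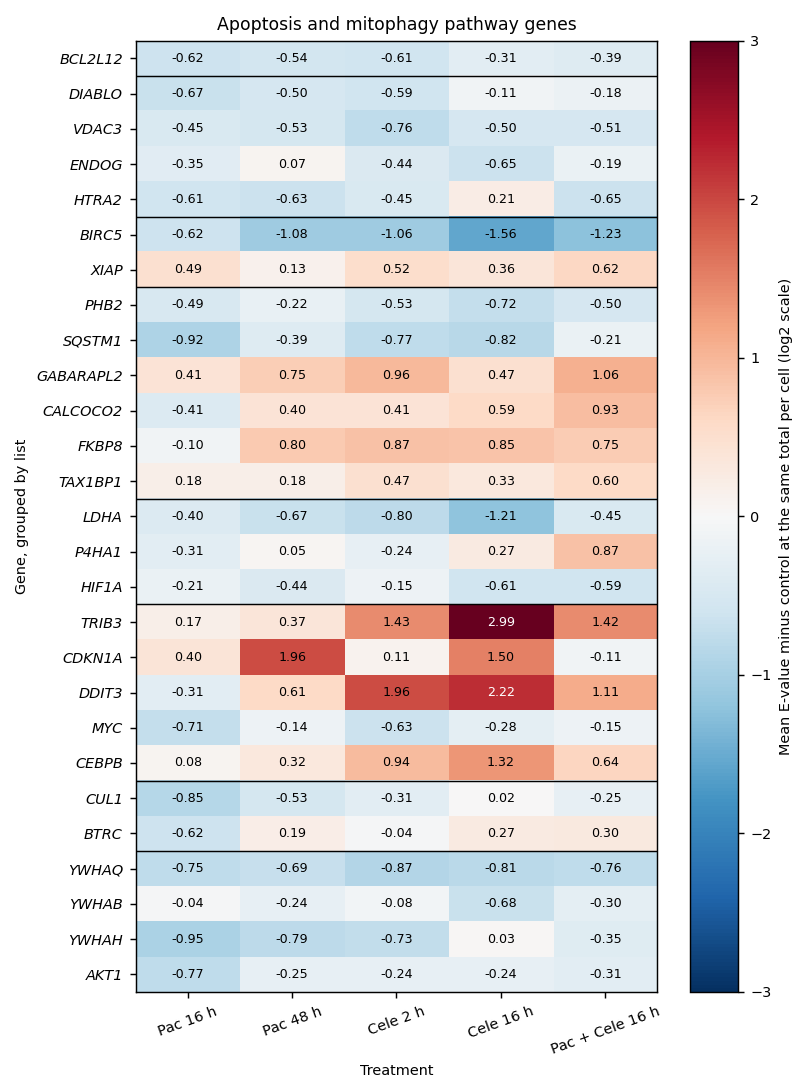
Mean E-value minus control at the same total per cell (colour and printed values, log2 scale) for the named pathway genes (rows, grouped by list) and treatments (columns). TRIB3 and DDIT3 reach 2.99 and 2.22 after 16 h of celecoxib, and BIRC5 and YWHAQ are below −0.6 in all 5 treatments.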

How the data were processed

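Single A2780 cells of 6 conditions were measured, and 338 of the 372 labelled cells were retained in the deposited table. After trimming with Trim Galore, the authors ran RSEM 1.3.0 with Bowtie2 against GENCODE 28 (hg38) and 3 spike-in RNAs, normalized TPM to the highest spike-in and left out cells poor in housekeeping transcripts. They deposited log2 values, E = log2(N/10 + 1), for 9664 genes past a 30% detection limit in any condition. Read depth is unknown. The number of cells bears on the values within a condition only, since each condition was 1 sample and cells are not replicates. Smart-seq2 does not keep strand.

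From these, N was recovered with Python 3.11.15, numpy 2.4.6, pandas 2.3.3 and scipy 1.17.1, and means, SDs over cells, detection shares with exact Clopper-Pearson 95% intervals (counting error only) and differences from control were computed. Calls need a difference over log2 of 1.5. No test was made, since each condition was 1 sample. Steps were tested on simulated data. Results were recomputed with an equal total for each cell, with or without the 50 most abundant genes in it, with ratios of linear means, with 1 instead of 10 normalized TPM as the pseudocount, with medians over cells, for each block of 96 running library numbers alone, without 1 well noted as 0 cells or debris, and with no or a 50% detection limit. The comparison of the combination with each single drug inside their shared block was added after seeing the data. Doublets were not called, which would need counts.

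The members and lists were chosen with earlier results of these data known. Named list genes were past the limit in the same direction on both scales in at least 1 treatment, at most 6 per list, and genes alike to a member had a mean r over 0.3. Overlapping genes came from GENCODE 44 and promoters from RefSeq (GRCh38.p14). 1 gene of a list is not reported here. Protein sequences, BCL2L11, PMAIP1 and BBC3 were not analysed here.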

Additional observations from a re-analysis of the deposited data

Results flagged for a closer look

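BNIP3L lay on opposite sides of control at the 2 times of paclitaxel, with a mean E-value difference of −0.48 at 16 h and 0.28 at 48 h. The difference between the times was not tested, since each time was 1 sample. At the same total per cell the values were −0.09 and 0.65. With a ratio of linear means they were 0.13 and 0.41, both above control.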

How the results depend on the processing

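Each difference of a member from control was recomputed under the alternatives, which gave 238 values for 35 differences. Of these values, 228 moved by less than 1 SD over cells without a called value changing sign, 4 moved further and 6 reversed. The 228 include sign changes of differences within the limit, and called differences that fell within it. BCL2L1 after 2 h of celecoxib kept its sign in 3 of 6 alternatives, and BID in the combination in 5 of 8. BID after 16 h of paclitaxel went from −1.22 to −0.51 at the same total. The 6 reversals of called values came with the same total per cell, and without the 50 most abundant genes in that total: BNIP3 after 16 h of paclitaxel (0.080 and 0.089), BNIP3L after 16 h of celecoxib (0.020 and 0.013) and BAD in the combination (−0.036 and −0.031). Both of these scalings also moved the counts of members, to 1 lower after 16 h of paclitaxel, 1 higher and 1 lower after 48 h, 1 lower after 16 h of celecoxib, and 0 higher and 1 lower in the combination. A pseudocount of 1 gave 7, 4 and 5 members lower after 16 and 48 h of paclitaxel and 2 h of celecoxib. Medians over cells gave 4 and 5 lower after 48 h of paclitaxel and 2 h of celecoxib, and 1 lower in the combination. No share of all genes was computed with that pseudocount or with medians, so these counts are not read as a result about the members. Of all genes, the same total gave 135 higher and 969 lower after 16 h of paclitaxel, 317 and 558 after 48 h, 320 and 784 after 2 h of celecoxib, 712 and 768 after 16 h, and 575 and 560 in the combination. A detection limit of 50% left 5 genes higher after 16 h of paclitaxel. By construction the same total removes the shift that all genes share, and the causes of the other changes were not tested. With an E-value above 1 as detection, 13 of 42 detection shares left their 95% interval, among them MCL1 at 58.7% in control and 25.0% after 16 h of paclitaxel. No paired analysis was possible because the numbers in the labels name cells, and each condition was 1 sample. For the same reason no sample could be left out.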
